A study of Mus musculus with 5 samples.

Results

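The collagen genes of mouse liver were followed over 5 arrays, with members taken as all probes whose platform gene symbol has the form Col, a type number, a and a chain number. The rule found 57 probes of 38 genes, out of 16637 genes named on the array. Of these, 11 encode chains of fibrillar collagens, 8 encode basement membrane collagens and 19 encode other collagens. A further 3 collagen genes carried older platform symbols and fell outside the rule, namely Col6a4, Col6a6 and Col26a1. Another 3 of the 44 collagen genes of the RefSeq gene table, Col6a1, Col6a5 and Col28a1, were not analysed here.

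The study asked how nordihydroguaiaretic acid (NDGA), a plant lignan that inhibits lipoxygenases, affects the livers of obese mice. Among wild-type (WT) C57BL/6 mice, 1 group received chow, another a high-fat diet, and the third that fatty diet containing 2.5 g of NDGA per kg of food. Mice of the ob/ob genotype, on the C57BL/6 background and without functional leptin, received chow or chow with 2.5 g of NDGA per kg. All diets lasted 16 weeks. The age and sex of the mice were not used here. Total liver RNA of 3 animals per group was used per the series' design text, and each group has 1 array, so no error, test or p-value could be computed and every difference below is between 2 arrays. Whether the RNA of the 3 animals was pooled is not stated in the labels.

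Collagens are extracellular proteins whose chains wind around each other into stiff helices. Fibrillar collagens assemble into the fibres that accumulate in a scarred liver, where activated stellate cells, the vitamin A-storing pericytes of the sinusoids, are their best known source. Type IV chains form the sheet-like network of basement membranes, and the remaining types decorate fibrils, form beaded filaments or span the cell membrane. Chains are hydroxylated, folded with the help of the chaperone HSP47, secreted, trimmed and crosslinked before they bear load.

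Deposited probe intensities were quantile normalized between the arrays, and levels are given as log2(intensity + 50), a scale that understates the change of dim probes. A gene is called expressed in a comparison when its mean on both arrays reached the median of the genes on the array, and 2-fold differences (a log2 difference of at least 1) were counted. Each gene is represented by its brightest probe, so a level shows change across arrays and is not set against the level of another gene. Over all 5 arrays, 19 members were expressed: 6 fibrillar, 4 basement membrane and 9 other collagens. For 922 genes with a pair of bright probes, the SD of the log2 difference per probe was 0.35 for high-fat diet, 0.33 for NDGA on high-fat diet, 0.28 for ob/ob and 0.46 for NDGA in ob/ob. This is a spread between probes on the same RNA, and the spread between mice is unknown. The array of ob/ob mice on chow with NDGA was the brightest as deposited, with a median intensity of 71.0 against 38.1 to 47.0 on the other 4. Without normalization the median of all expressed genes was therefore shifted by 0.68 in the NDGA comparison in ob/ob and by -0.15 in ob/ob against WT, and by at most 0.03 in the other pair; after quantile normalization these medians were -0.09, 0.04, -0.01 and -0.03.

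A small set of collagens, Col1a2, Col3a1 and Col4a1, held the 2-fold differences of expressed genes in both WT comparisons. Both fibrillar genes among them were also at least 2-fold higher in ob/ob mice on chow. The bases before the RefSeq start of Col1a2 and Col3a1, the fibrillar chains whose levels moved most, are shown because these genes were higher and lower on the same arrays. The windows hold the 250 bases before the start (RefSeq, GRCm38.p6), at chr6:4505368-4505617 on the plus strand and at chr1:45311288-45311537 on the plus strand. Capitals mark the searched motifs, which were the CCAAT box, the core GGGCGG of a GC box and the TATA box written as TATAAA.
Col1a2: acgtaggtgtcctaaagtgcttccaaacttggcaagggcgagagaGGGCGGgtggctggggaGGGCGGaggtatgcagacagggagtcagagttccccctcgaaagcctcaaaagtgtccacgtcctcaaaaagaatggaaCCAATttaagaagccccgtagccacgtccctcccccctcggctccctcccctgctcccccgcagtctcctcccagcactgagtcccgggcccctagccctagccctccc
Col3a1: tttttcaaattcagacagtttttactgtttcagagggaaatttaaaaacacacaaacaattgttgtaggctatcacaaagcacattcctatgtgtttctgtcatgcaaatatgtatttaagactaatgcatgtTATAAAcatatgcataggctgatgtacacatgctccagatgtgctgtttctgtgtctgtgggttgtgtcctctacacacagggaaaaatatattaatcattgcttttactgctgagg

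The Col1a2 window held GGGCGG at 205 and 188 bases before the start and CCAAT at 109 bases before it. The Col3a1 window held TATAAA at 117 bases before the start and neither of the other motifs. The motifs were searched on both strands and share no overlap with each other. Over all 32851 windows of the table, 33.8% held CCAAT, 32.7% held GGGCGG and 12.4% held TATAAA. The table had 33 windows for 30 of the 38 collagen genes, of which 12 held CCAAT, 19 held GGGCGG and 5 held TATAAA. The windows of Col1a2 and Col3a1 thus had none of these motifs in common.

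**Figure D1:**
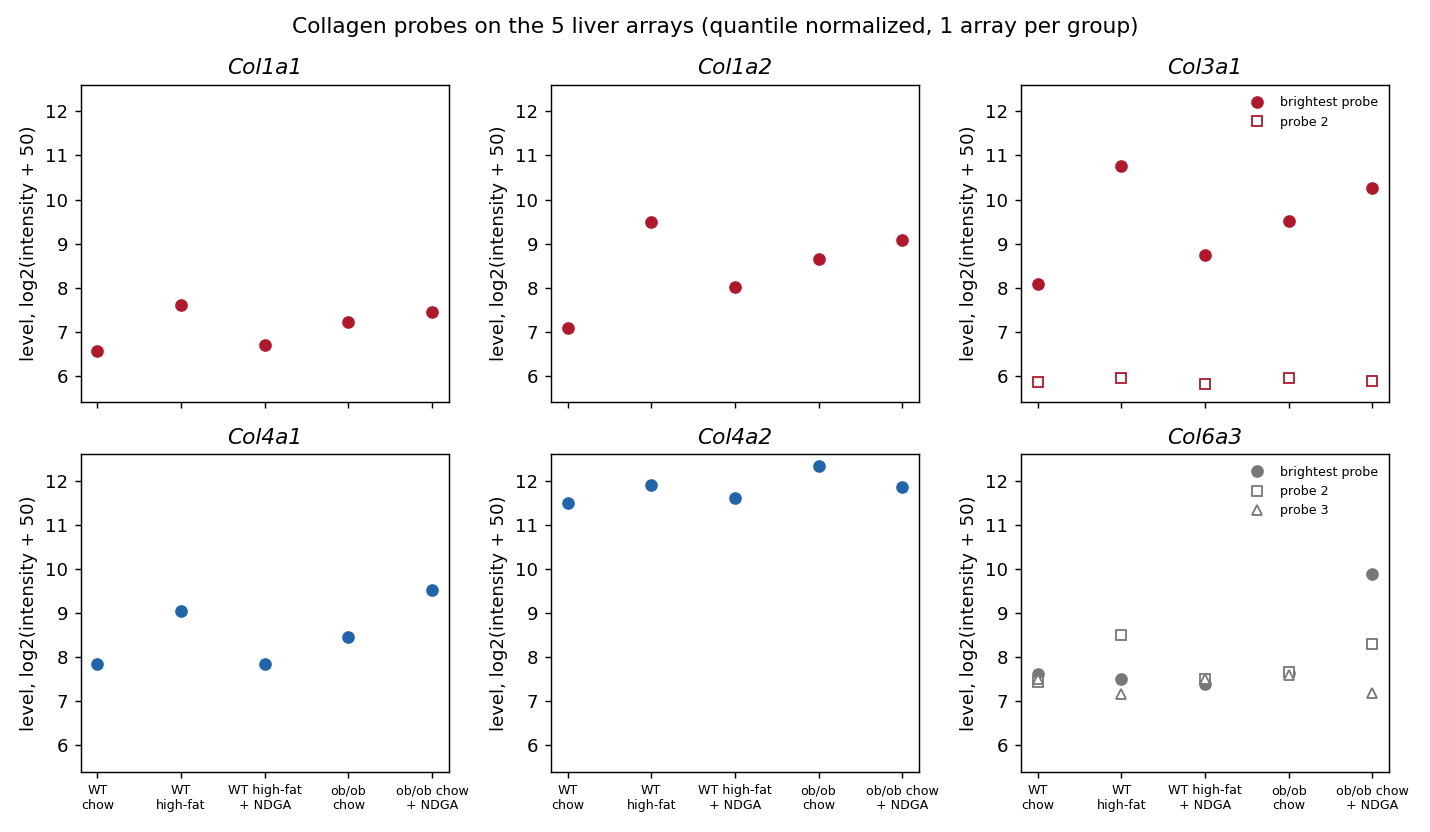
Normalized level, log2(intensity + 50), of each probe of 6 collagen genes on the 5 arrays; each point is 1 array, and colours mark fibrillar (red), basement membrane (blue) and other (grey) collagens. Col1a1, Col1a2, Col3a1 and Col4a1 are higher on WT high-fat than on WT chow or WT high-fat with NDGA, whereas the second probe of Col3a1 stays near 6 and the 3 probes of Col6a3 differ.

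Among fibrillar collagens, Col1a2 encodes the alpha-2 chain of type I collagen, the main protein of scar fibres. Its probe (mMC021941) read an intensity of 77.8 on WT chow, 602 on WT high-fat, 205 on WT high-fat with NDGA, 275 on ob/ob chow and 711 on NDGA-treated ob/ob. WT chow was the lowest array, and WT high-fat with NDGA lay between WT chow and WT high-fat. After normalization Col1a2 was 5.24-fold higher with high-fat diet (log2 difference 2.39), 2.76-fold lower with NDGA on that diet (-1.46) and 2.96-fold higher in ob/ob (1.57). In ob/ob mice its log2 difference with NDGA was 0.42.

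Col3a1 encodes type III collagen, which forms thin reticular fibres together with type I. Its bright probe (mMC019473) read 198 on WT chow, 1545 on WT high-fat, 366 on WT high-fat with NDGA, 527 on ob/ob chow and 1719 on NDGA-treated ob/ob. The order of the arrays was the same as for Col1a2 in the deposited values. After normalization it was 6.47-fold higher with high-fat diet (log2 difference 2.69), 4.08-fold lower with NDGA on that diet (-2.03) and 2.71-fold higher in ob/ob (1.44), with 0.74 for NDGA in ob/ob. The second probe of the gene (mMC007483) read 5.91 to 11.3 on all arrays, near background, so the differences rest on a single probe. As the mean of both probes the gene was at 1.39, -1.09, 0.76 and 0.34.

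Col1a1 encodes the alpha-1 chain that pairs with the product of Col1a2. Its probe was dim, at 36.6 on WT chow, 129 on WT high-fat, 53.4 on WT high-fat with NDGA, 79.7 on ob/ob chow and 175 on NDGA-treated ob/ob. In the deposited values the arrays took the same order as for Col1a2 and Col3a1, with NDGA-treated ob/ob highest. After normalization WT high-fat was the highest array for each of these genes. Its levels, against those of NDGA-treated ob/ob, were 9.48 and 9.07 for Col1a2, 10.8 and 10.3 for Col3a1, and 7.61 and 7.45 for Col1a1. The gene missed the filter in high-fat diet against chow, where its difference was 1.06, and in ob/ob against WT, where it was 0.65. It passed in both NDGA comparisons, at -0.92 in WT on the high-fat diet and 0.24 in ob/ob.

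The fibrillar chains of type V, which regulate fibril diameter, did not share this pattern. Col5a1 read 187 to 216 on 4 arrays and 311 on ob/ob chow with NDGA, with normalized differences between -0.08 and 0.15. Col5a3 was at -0.50 with high-fat diet and 0.57 with NDGA on it, the opposite direction to Col1a2 and Col3a1. The brightest of 3 Col5a2 probes was dim, at 43.5 to 78.6. Its neighbour in the genome is Col3a1, yet its log2 difference with high-fat diet was 0.28. The second Col5a2 probe was at 0.56 on dim intensities of 6.48 and 27.7. Col11a1 and Col11a2, chains of cartilage fibrils, ranged from -0.41 to 0.13 over the 4 comparisons. Col2a1, the main cartilage collagen, and Col24a1 and Col27a1 were dim.

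Among basement membrane collagens, Col4a1 and Col4a2 encode the chains that make up the common type IV network. Both genes lie head to head on opposite strands, and their 300-base promoter windows share 78 bases. Their RefSeq starts are 21 bases apart, with the Col4a2 start just inside Col4a1, so that their first bases overlap. Col4a1 read 163 on WT chow, 436 on WT high-fat, 178 on WT high-fat with NDGA, 239 on ob/ob chow and 998 on NDGA-treated ob/ob. The 2 lowest readings were those of WT chow and WT high-fat with NDGA. In the order high-fat diet, NDGA on that diet, ob/ob and NDGA in ob/ob, which is kept below, its log2 differences were 1.21, -1.21, 0.63 and 1.05.

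Col4a2 read 2635 on WT chow, 3556 on WT high-fat, 2870 on WT high-fat with NDGA, 3726 on ob/ob chow and 5409 on NDGA-treated ob/ob. Its differences were 0.41, -0.29, 0.83 and -0.48, all below 2-fold. The signs of the pair matched in the first 3 comparisons. In the fourth Col4a1 was higher and Col4a2 lower after normalization, while without normalization both were higher, at 1.86 and 0.53 against a shift of 0.68 over all expressed genes.

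Col4a5, a chain of the kidney and muscle basement membrane network, ran the other way on its brightest probe. That probe read 546 on WT chow, 295 on WT high-fat, 579 on WT high-fat with NDGA, and in ob/ob mice 347 on chow and 328 with NDGA. WT high-fat was the lowest of the WT arrays. The log2 differences of the probe were -0.78, 0.79, -0.39 and -0.82. Its second probe was at -0.15, 0.38, 0.42 and -0.66, so the probes differed in sign for ob/ob. Col15a1, a multiplexin of vessel and muscle basement membrane zones, was at 0.29, -0.64, 0.59 and -0.41. It missed the filter with NDGA on the high-fat diet. Col18a1, whose tail gives rise to endostatin, was dim, reading 29.3 to 62.2 on 4 arrays and 128 on ob/ob chow with NDGA. Col4a3, Col4a4 and Col4a6 were dim on all arrays, with differences between -0.20 and 0.22.

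Of the other collagens, Col6a3 encodes a chain of the beaded filaments of type VI, and its 3 probes gave 3 profiles. The brightest probe (mMC009876) read 115 to 134 on 4 arrays and 1304 on ob/ob chow with NDGA, where it was 5.98 times as bright as on the next array after normalization. It gave a log2 difference of 2.24 for NDGA in ob/ob and -0.13, -0.12 and 0.01 for high-fat diet, NDGA on it and ob/ob. The second probe (mMR029325) read 113 on WT chow, 280 on WT high-fat, 131 on WT high-fat with NDGA, 126 on ob/ob chow and 382 on NDGA-treated ob/ob, giving 1.05, -0.98, 0.23 and 0.63. The third probe (mMC009137) was at -0.34, 0.34, 0.09 and -0.43. The 2-fold difference of Col6a3 therefore depends on which probe stands for the gene. Which transcripts each probe detects was not tested.

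The remaining expressed members of the group differed by less than 2-fold in all 4 comparisons. Col14a1, a fibril-associated collagen, read 342 on WT chow, 411 on WT high-fat, 371 on WT high-fat with NDGA, 390 on ob/ob chow and 588 on NDGA-treated ob/ob. It was at 0.24, -0.24, 0.37 and -0.29. Col13a1, Col17a1, Col23a1 and Col25a1, which span the cell membrane, were all lower with high-fat diet (-0.10, -0.18, -0.28 and -0.48) and higher with NDGA on it (0.29, 0.21, 0.24 and 0.52). Col20a1, another fibril-associated collagen, was at -0.41 and 0.27 in these comparisons. Col7a1, the anchoring fibril collagen of skin, stayed between -0.07 and 0.16 in 3 comparisons and was at -0.51 with NDGA in ob/ob. Col9a2 missed the filter with NDGA on the high-fat diet, where it was at -0.41. The 10 dim genes of the group, among them Col6a2, Col8a1, Col10a1 and Col12a1, read at most 101, with differences between -0.24 and 0.29.

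**Figure D2:**
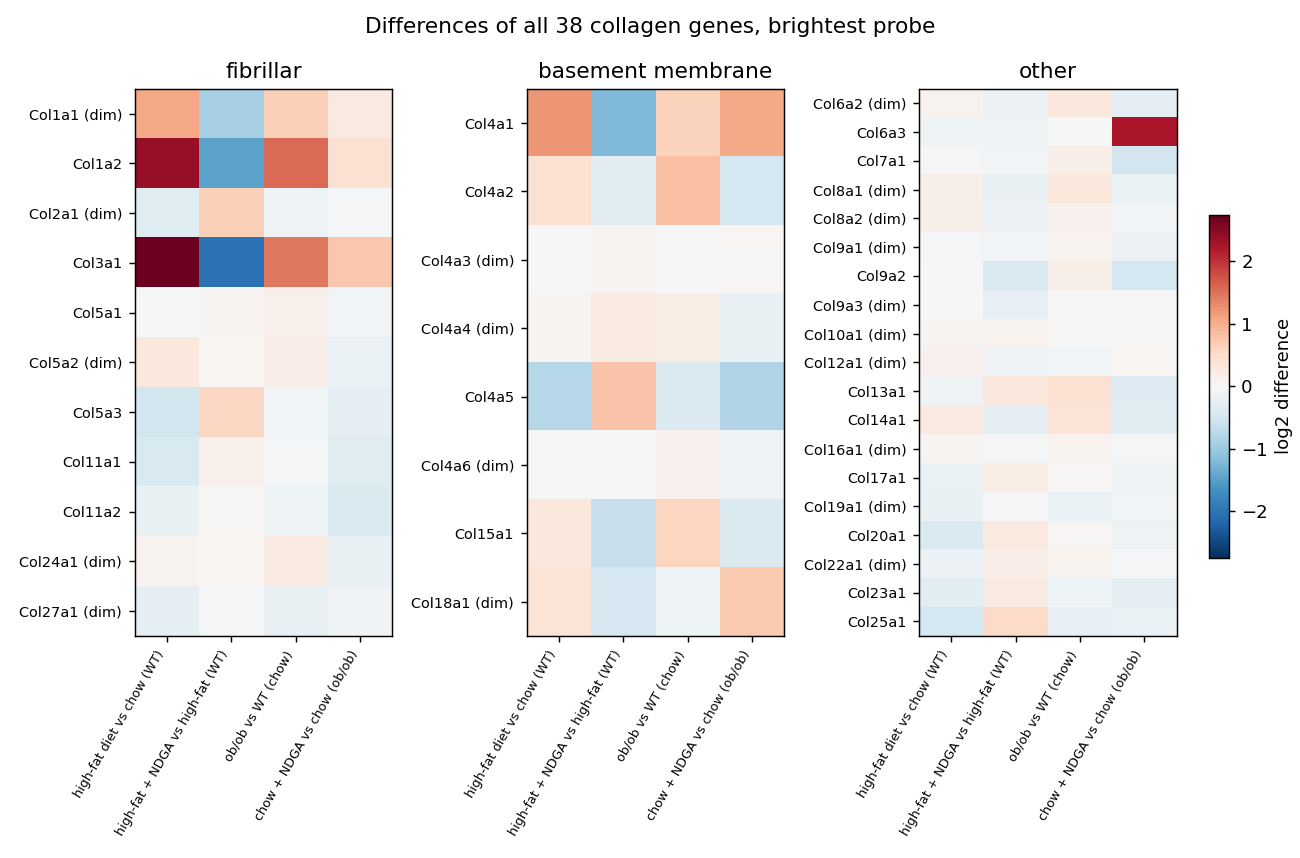
Log2 difference of the brightest probe of all 38 collagen genes (rows) in the 4 comparisons (columns), by class; red is higher and blue lower on the first-named array, and "dim" marks genes below the median level of all genes over the 5 arrays. Col1a2, Col3a1 and Col4a1 have the deepest colours in the WT columns, and Col4a5 has the opposite sign to them there.

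The first comparison, WT high-fat with WT chow, concerns the effect of the diet. Of 19 expressed collagens, 3 were at least 2-fold higher, Col1a2, Col3a1 and Col4a1, and 0 were lower. Over all 8319 expressed genes, 2.13% were higher by that margin and 1.33% lower. Col1a2 had a level of 7.09 on WT chow, below the median of 7.15 over all genes on the 5 arrays. It therefore counted as expressed through the WT high-fat array. Without the filter 4 of 38 collagens were at least 2-fold higher, Col1a1 among them, against 192 of all 16637 genes. By class, 2 of 6 expressed fibrillar, 1 of 4 basement membrane and 0 of 9 other collagens were higher. The class medians were -0.09, 0.35 and -0.13, beside -0.01 for all expressed genes, and 12 of the 19 members lay below 0. The difference was thus held by a few genes and was not shared by the family.

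The second comparison concerns the effect of NDGA in WT mice fed the high-fat diet. The same 3 genes, of 18 expressed collagens, were at least 2-fold lower and 0 were higher, against 1.56% of all expressed genes lower and 0.902% higher. This comparison shares the WT high-fat array with the one before, so a reading that was high on that array alone gives opposite differences in both. Set directly beside WT chow, Col4a1 read 178 with NDGA against 163, Col3a1 366 against 198 and Col1a2 205 against 77.8 as deposited. The normalized levels were 7.85 against 7.84 for Col4a1, 8.74 against 8.07 for Col3a1 and 8.02 against 7.09 for Col1a2. The medians were 0.04 for 7 fibrillar, -0.29 for 3 basement membrane and 0.22 for 8 other collagens, beside -0.03 for all expressed genes.

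The third comparison sets ob/ob with WT mice, both on chow. Col1a2 and Col3a1, 2 of 19 expressed collagens, were at least 2-fold higher and 0 were lower, against 1.03% and 1.79% of all expressed genes. On WT chow the level of Col1a2 (7.09) was below the 5-array median of 7.15, as stated above. Without the filter 2 of 38 collagens were at least 2-fold higher, against 99 of all 16637 genes. As the mean of its probes Col3a1 was below 2-fold here. The 4 expressed basement membrane collagens had a median of 0.61, with Col4a2 at 0.83, Col4a1 at 0.63, Col15a1 at 0.59 and Col4a5 on the other side of 0 at -0.39. The medians were 0.05 for 6 fibrillar and 0.04 for 9 other collagens, beside 0.04 for all expressed genes. The WT chow array is shared with the high-fat comparison. Both fibrillar genes differed by less here than there, 1.57 against 2.39 for Col1a2 and 1.44 against 2.69 for Col3a1, and whether these differ beyond the spread between mice was not tested.

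The fourth comparison concerns the effect of NDGA in ob/ob mice on chow. Col4a1 and Col6a3, 2 of 20 expressed collagens, were at least 2-fold higher and 0 were lower, against 6.74% and 0.505% of all expressed genes, so the share of collagens lay close to the background. Col6a3 rested on the probe that was bright on this array alone. Of the 20 genes, 15 were below 0; the medians were -0.08 for 7 fibrillar, -0.44 for 4 basement membrane and -0.26 for 9 other collagens, beside -0.09 for all expressed genes. Without normalization Col1a2 (1.23) and Col3a1 (1.62) were also at least 2-fold higher, and the class medians were 0.60, 0.35 and 0.35 beside the shift of 0.68. The 2-fold lower readings of Col1a2 and Col3a1 seen with NDGA in WT mice thus had no counterpart of the same sign here, where their differences were 0.42 and 0.74; the difference between both NDGA comparisons was not tested.

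**Figure D3:**
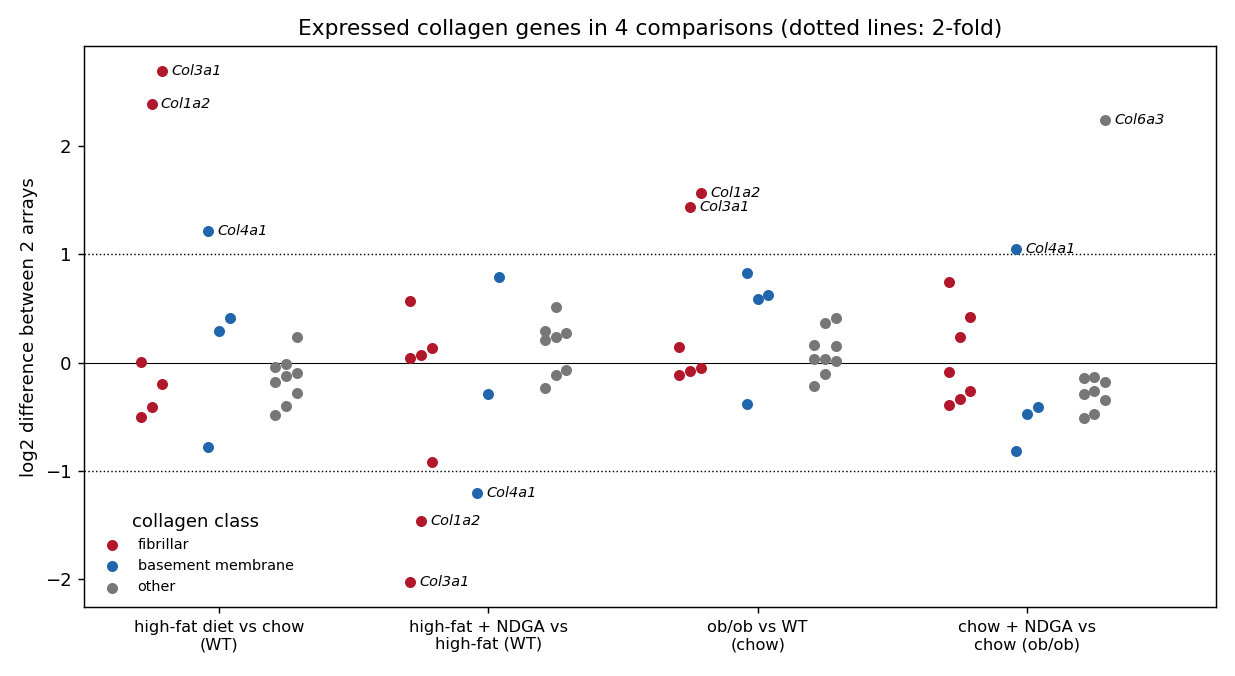
Log2 differences of the expressed collagen genes in the 4 comparisons; each point is the brightest probe of 1 gene, colours are collagen classes, and genes beyond the dotted 2-fold lines are named. In the WT comparisons Col1a2, Col3a1 and Col4a1 stand beyond the lines on opposite sides, and most other members lie within them.

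Among 34 genes of collagen synthesis, processing and crosslinking, 30 were named on the array. Sparc, a collagen-binding matricellular protein, read 130 on WT chow, 522 on WT high-fat, 161 on WT high-fat with NDGA, 226 on ob/ob chow and 749 on NDGA-treated ob/ob. Its differences of 1.70, -1.55, 0.80 and 0.75 had the signs of those of Col1a2 and Col3a1 in all 4 comparisons. Sparc was the 1 gene at least 2-fold higher with high-fat diet of 19 expressed, and with NDGA on that diet Sparc and Serpinh1 (-1.08), which encodes HSP47, were the 2 lower genes of 19.

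Loxl1, a crosslinking oxidase, was the 1 gene of 20 at least 2-fold higher in ob/ob (1.07) and the 1 gene of 19 lower with NDGA in ob/ob (-1.35), but was at 0.52 and -0.77 as the mean of its probes. The list medians were 0.20, -0.31, 0.10 and -0.12. The prolyl hydroxylase subunits P4ha2 (0.24, -0.57, 0.11 and -0.04) and P4hb (0.05, -0.23, 0.18 and -0.05), which stabilise the helix, differed by less than 2-fold throughout.

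Of 13 named genes of collagen degradation and its inhibitors, 7 were expressed and 0 were 2-fold apart in any comparison. The inhibitor Timp1 was at 0.62 with high-fat diet and -0.84 with NDGA on it, and the gelatinase Mmp2 at 0.60 and -0.60. The inhibitor Timp4 (-0.33 and 0.66) and the collagenase Mmp13 (-0.18 and 0.19) had the opposite signs, and the list medians were -0.08 and -0.20. Of 9 named collagen receptors, 0 of 4 expressed genes (3 in NDGA against chow in ob/ob) were 2-fold apart; Itgb1, the shared integrin beta chain, was at -0.39, 0.34, 0.16 and -0.58. Among 11 fibril-associated proteoglycans and glycoproteins, of which 5 or 6 were expressed, 0 were 2-fold apart, with decorin (Dcn) at 0.65, -0.55, 0.43 and 0.39. The medians of that list were 0.23, -0.12, 0.42 and -0.31. With NDGA in ob/ob 2 of its 6 expressed genes lay above 0, and Bgn (-0.87) and Ecm1 (-0.76) went against Dcn. Among 12 named TGF-beta and fibroblast growth signals, 0 of 8 expressed were 2-fold apart in the first 3 comparisons, with Tgfb1 at 0.37, -0.48 and 0.08. With NDGA in ob/ob, Ccn2, a connective tissue growth factor induced by TGF-beta, was the 1 higher gene (1.72, intensity 182 and 1259).

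**Figure D4:**
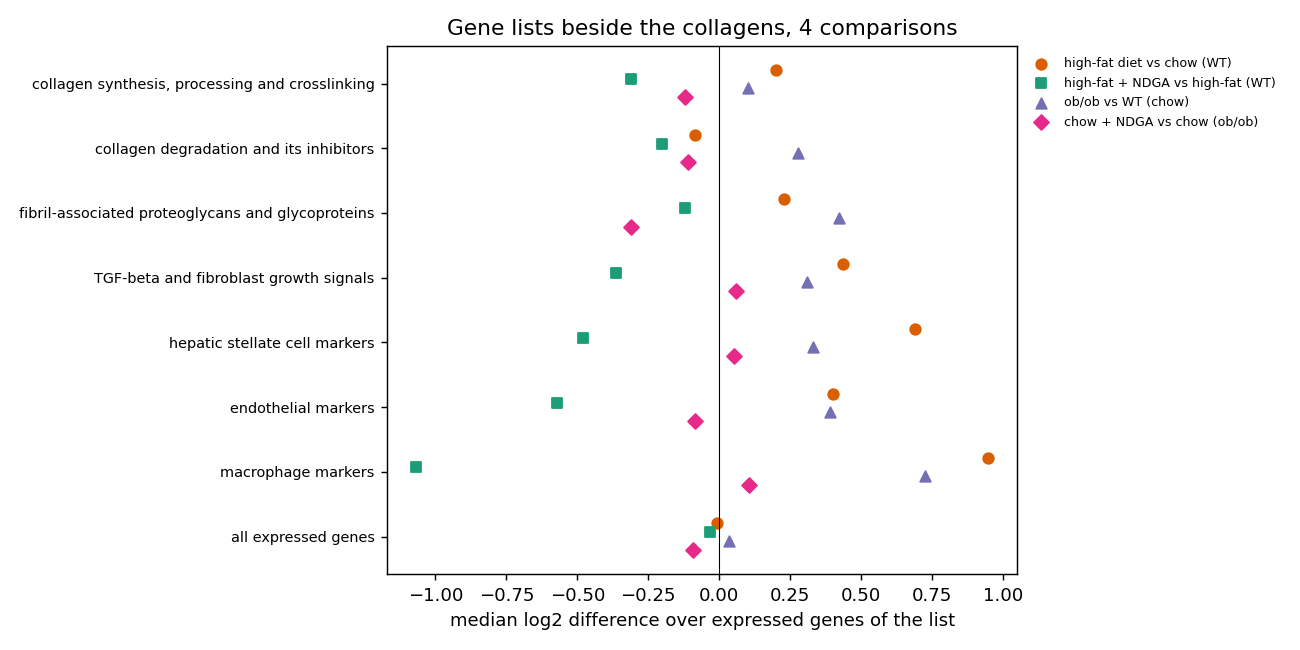
Median log2 difference over the expressed genes of each list (rows) in the 4 comparisons (markers), beside all expressed genes. Collagen receptors and the cholangiocyte, hepatocyte, adipocyte and skeletal muscle markers are not plotted. With high-fat diet the stellate cell median is at 0.69 and the macrophage median at 0.95, and with NDGA on that diet they are at -0.48 and -1.07.

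Whole liver holds several cell types, and fewer cells of a type cannot be told apart here from less RNA per cell. Among hepatocyte markers, Alb read 62274 to 65764 on the 5 arrays, near the highest deposited value of 66576, so its level has only a lower bound there and shows no change or stability. Apoa1 came near that value on ob/ob chow with NDGA (65763). Ttr and Cps1 were less than 2-fold apart in the first 3 comparisons, and Cps1 (1.71) was higher with NDGA in ob/ob. Of 10 stellate cell markers, 6 were expressed. With high-fat diet 2 were at least 2-fold higher, Vim (1.65) and Acta2 (1.04), against 2.13% of all expressed genes. With NDGA on it 1 was lower, Vim (-1.52), against 1.56%. Of the 6, 5 lay above 0 with high-fat diet and 2 with NDGA on it. Des went against Vim at -0.23 and 0.48, and was at 0.07 in ob/ob against WT and -0.51 with NDGA in ob/ob. In ob/ob against WT, Acta2 (1.96) and Vim (1.11) were again the 2 higher genes, against 1.03% of all expressed genes. Acta2, the smooth muscle actin, was at 0.89 with NDGA on the high-fat diet, opposite in sign to Col1a2. As the mean of its 4 probes Acta2 was below 2-fold throughout, at 0.23 with high-fat diet, 0.17 with NDGA on it and 0.44 in ob/ob. Lrat, which stores vitamin A in quiescent stellate cells, was at 0.10 and -0.41. The normalized intensity summed over the stellate cell list was 6768 on WT chow, 11061 on WT high-fat, 8787 on WT high-fat with NDGA, 10406 on ob/ob chow and 12106 on NDGA-treated ob/ob. This sum is weighted to bright genes and is no measure of cell number. Dcn alone read 3706 on WT chow and 6203 on WT high-fat as deposited, and the brightest Acta2 probe is included.

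Macrophage markers were at least 2-fold higher for 4 of 8 with high-fat diet and lower for 5 of 8 with NDGA on it. Over all expressed genes these shares were 2.13% and 1.56%. All 8 lay above 0 with high-fat diet and 0 of 8 with NDGA on it, but not evenly. Clec4f was at 0.06 and -0.51 and Marco at 1.25 and -0.30, beside list medians of 0.95 and -1.07. As the mean of 2 probes Csf1r was below 2-fold in both comparisons (0.56 and -0.55), as was Cd68 with NDGA (-0.48). In ob/ob against WT all 8 lay above 0, with a median of 0.72. C1qb (1.32) was at least 2-fold higher there, against 1.03% of all expressed genes. With NDGA in ob/ob, Adgre1 (1.09) and Mpeg1 (1.03) were the 2 higher genes of 8, against 6.74% of all expressed genes. Of 7 endothelial markers, 0 were 2-fold apart in the WT comparisons (medians 0.40 and -0.57). In ob/ob against WT their median was 0.39 and Lyve1, a sinusoidal endothelial receptor, was 1 gene at least 2-fold higher (1.21). Of 5 cholangiocyte markers, 4 were expressed. Spp1 was the 1 gene of these 2-fold apart in the first 3 comparisons, at 1.21, -1.27 and 1.36, with 0.39 in the fourth. The medians of the cholangiocyte list were -0.12, -0.10, 0.18 and -0.05.

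Skeletal muscle markers were brighter on both NDGA arrays than on their counterparts without it, except Tnnt3 in WT. Ckm, the muscle creatine kinase, read 1501 against 11.7 in WT on the high-fat diet and 316 against 12.4 in ob/ob on chow. On the high-fat diet 4 of the 5 expressed muscle genes were higher by 2-fold or more, against 0.902% of all expressed genes. Ckm, Ckmt2, Cox6a2 and Mylpf read 11.7 to 41.7 on WT high-fat. They passed the filter only through the NDGA array, so the count cannot serve as a test. In ob/ob 1 of 2 expressed muscle genes was higher by that margin, Mylpf (1.59), against 6.74% of all expressed genes. Mylpf read 363 with NDGA against 40.9, so it too passed the filter only through the NDGA array. This count likewise cannot serve as a test. Ckm, Ckmt2 and Cox6a2 missed the filter in ob/ob. Tnnt3, a troponin of fast muscle, went apart from these and was at 1.90 with high-fat diet, -0.76 with NDGA on it and 3.12 in ob/ob.

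Of the adipocyte markers, Fabp4, Plin1, Lep and Adipoq missed the filter in all 4 comparisons. Cfd, which encodes the complement protease adipsin, read 246 on WT chow, 709 on WT high-fat, 2930 on WT high-fat with NDGA, 19.2 on ob/ob chow and 159 on NDGA-treated ob/ob. It was at 1.37 with high-fat diet, 1.95 with NDGA on it and -2.17 in ob/ob, and missed the filter with NDGA in ob/ob. The part of any of these cell types in the collagen differences was not tested.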

How the data were processed

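The deposited values are linear intensities of 29922 probes on 5 Phalanx Mouse OneArray V1 arrays (1 colour, Cy5, per the labels). That they are intensity values with background subtracted was judged from the values, which run from -25.0 to 66576; no label names the scanner, the background correction or the scaling used by the authors. Between 45.1% and 54.1% of probes per array lay below 50. Precision is limited by the number of arrays, 1 per group.

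Values were quantile normalized, log2(value + 50) was taken, and 21020 probes with 1 gene symbol were reduced to 16637 genes, each by its brightest probe, with symbols updated through RefSeq (GRCm38.p6). Expressed genes (8319 per comparison) were those at or above the median. Members named with values are those expressed or at least 2-fold apart, plus Col1a1, Col1a2, Col3a1, Col4a1 and Col4a2; of other lists, up to 4 members at least 2-fold apart were named by rule, and other genes, among them the dim members Col5a2 and Col18a1, were chosen after their values were seen. The members and lists were chosen with earlier results of these data known. Results were recomputed with unnormalized values, median centring, loess (span 0.3), an offset of 16, the filter omitted or set to the 75th percentile, and the mean of all probes; other settings were added after the data were seen. Python 3.11.15, pandas 2.3.3, numpy 2.4.6 and statsmodels 0.14.6 were used; the steps were tested on simulated data.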

Additional observations from a re-analysis of the deposited data

Results flagged for a closer look

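Col4a1 differed in opposite directions with NDGA in the 2 mouse models. It was lower by at least 2-fold on the WT high-fat array with NDGA (log2 difference -1.21, intensity 178 against 436) and higher by at least 2-fold on the ob/ob chow array with NDGA (1.05, intensity 998 against 239). Over the alternatives it ranged from -1.34 to -1.09 in WT and from 1.05 to 1.86 in ob/ob. Col4a1 has 1 probe, and the WT value shares the WT high-fat array with its 1.21 for high-fat diet. With NDGA in ob/ob the SD per probe was 0.46, and 6.74% of all expressed genes were at least 2-fold higher. Its partner Col4a2 was at -0.48 there. Each model has 1 array per condition and the diets differ, so the difference between the models was not tested.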

How the results depend on the processing

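Counts of collagens at least 2-fold apart were recomputed under 7 other settings and 2 chosen after seeing the data. With the filter at the 75th percentile, which left 5 or 6 expressed collagens, each count fell to 1: Col3a1 higher with high-fat diet, lower with NDGA on it and higher in ob/ob, and Col4a1 higher with NDGA in ob/ob. With NDGA in ob/ob the count of 2 became 4 without normalization, 1 with the mean of all probes and 1 without the Col6a3 probe that was bright on 1 array. In ob/ob against WT it became 1 (Col1a2) with the mean of all probes. The other 64 counts stayed the same or within 1.5 times, and many of these were counts of 0 that stayed 0. No difference of at least 2-fold reversed its sign. Among medians and single genes, 541 values moved by less than the SD between probes and 47 by more. Part of the 541 could not move. The mean of all probes leaves a gene with 1 probe unchanged, and omitting the Col6a3 probe leaves every other gene unchanged. No paired analysis was possible because each group has 1 array.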
